A study of Rattus norvegicus with 4 samples.

Results

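The 8 genes described here encode proteins of the gelatinous matrices that lie over the sensory epithelia of the inner ear, or matrix proteins found with them. They are the tectorin genes Tecta and Tectb, otogelin (Otog), otoconin-90 (Oc90), osteopontin (Spp1), SPARC-like 1 (Sparcl1), SPARC (Sparc) and tenascin-C (Tnc). They were chosen by name, as the gene probes whose current rat symbol is on that list. A probe was named for 6 of the 8 genes, with 8 probes in all among 33849 gene probes on the array: 1 each for Tecta, Otog, Spp1 and Sparcl1 and 2 each for Sparc and Tnc. No probe was named for Tectb or Oc90, which were not analysed here. All 8 probes met the detection filter, a signal called above background by the scanner software on at least 2 of the 4 arrays.

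The tissue was the rat crista ampullaris, the ridge of sensory epithelium in each semicircular canal, which senses turning of the head, cut by laser capture into 2 layers with 2 single-colour whole-genome arrays each. The first, the hair cell layer, called the hair layer below, held type I and type II hair cells and also the cytoplasm of supporting cells that lies between them. The second, the supporting cell layer, called the supporting layer below, held the cell bodies of supporting cells on the basal lamina. Treatment, strain and age are not named in the labels. Hair cells were recognised by their stereociliary tuft, the calyx ending around them and the position of the nucleus, so RNA of supporting cells and of calyx endings could enter the first layer. Nothing in the labels ties the arrays to different animals. The p-values therefore describe the spread between these 4 arrays, which may be technical. In bulk tissue, more cells of a type and more RNA per cell cannot be told apart.

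The cupula is the gel that stands on the crista and bends the hair bundles when the head turns. The tectorial membrane of the cochlea and the otoconial membrane of the maculae are its counterparts. Tectorins and otogelin are large glycoproteins of these gels, and loss of Tecta or Otog impairs hearing or balance. Otoconin-90 is the main protein of the otoconia, the mineral grains that weigh down the otoconial membrane and are absent from the cupula. Osteopontin, SPARC, SPARC-like 1 and tenascin-C are secreted proteins that bind calcium, collagen or integrins and are made in many tissues, so their RNA is no marker of an apical gel.

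The 4 arrays had median raw intensities from 12.0 to 26.5, and the scanner software called between 39.7% and 48.8% of the gene probes detected on them, with the higher values on the hair layer arrays. The 2 arrays of a layer correlated at r = 0.993 and 0.994 over the 11059 probes detected on all 4 arrays; probes are not independent replicates. Below, a raw intensity is the spot signal after local background subtraction, and a normalized intensity is the same signal after quantile normalization, both in arbitrary units. Changes are log2 differences, supporting minus hair layer, with a standard error (SE) from limma, so values below 0 mark genes that were brighter in the hair layer.

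Of the 6 genes, each at its brightest probe, Otog, Spp1, Sparcl1 and Tnc were higher in the hair layer, Tecta was higher in the supporting layer, and Sparc did not pass the test. Calls were made at an adjusted p under 0.05 (limma with Benjamini-Hochberg adjustment over 16478 tested probes). Calls were common on these arrays: 65.4% of the 7768 tested genes were called, 37.2% higher in the hair layer and 28.2% higher in the supporting layer. The 5 called genes of 6 are therefore described by their values, and their number is not read as a property of the group. The arrays of the layers did not overlap for any of the 6, 4 of them higher in the hair layer and 2, Tecta and Sparc, higher in the supporting layer, beside 48.9% and 40.3% of all tested genes. Counted by probe, 5 of 8 were called higher in the hair layer and 1 higher in the supporting layer. Of all tested probes 67.4% were called, 33.9% and 33.5% by direction. The dimmer Tnc probe, among the 5, met the detection filter through the hair layer alone, which fixes its direction. By probe, 5 lay apart toward the hair layer and 2 toward the supporting layer, against 44.4% and 45.0% of all tested probes. The median change of the 6 genes was -1.56, beside -0.10 over all tested genes.

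**Figure D1:**
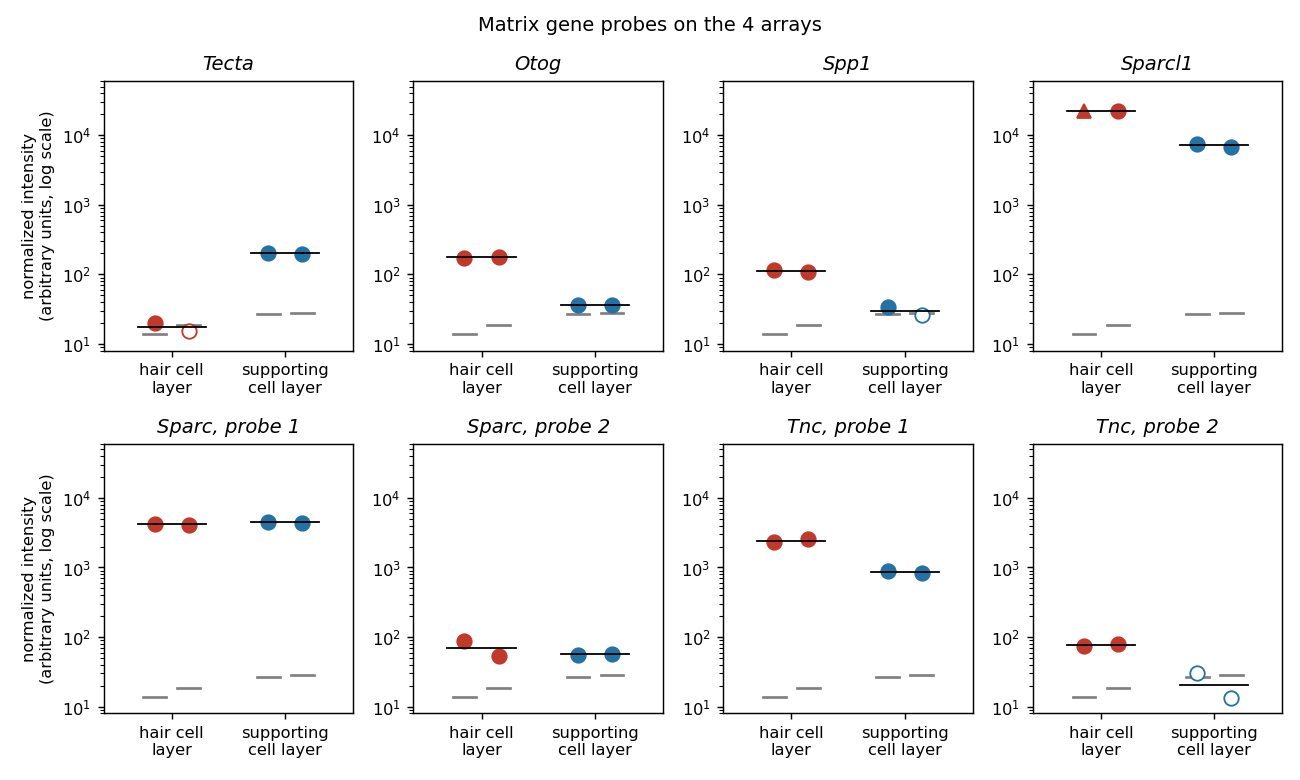
Normalized intensity (arbitrary units, log scale) of the 8 matrix gene probes on each of the 4 arrays, hair cell layer in red and supporting cell layer in blue, replicate 1 on the left of each pair. Filled points were detected, open points were not, the triangle is a saturated spot, grey bars mark the lowest detected signal of that array and black lines the geometric mean of a layer. Tecta rose from 17.6 to 200.0 between the layers while Otog fell from 176.6 to 36.1.

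Tecta encodes alpha-tectorin, a scaffold protein of the tectorial membrane that is secreted by supporting cells in the cochlea. Its raw intensity was 30.8 and 15.4 on hair layer arrays 1 and 2, and 161 and 147 on supporting layer arrays 1 and 2. The normalized intensities were 20.3, 15.2, 205.6 and 194.6 in the same order. The signal was detected on both supporting layer arrays and on only 1 of the 2 hair layer arrays, and both hair layer values lay near the lowest detected signal of their arrays, 13.9 and 18.5. The layers did not overlap. Tecta changed by 3.51 ± 0.18 (SE, 2 arrays per layer; adjusted p = 0.00170 by limma), a fold of 11.4. With 28.3, the highest of the 4 detection limits, as the floor for each value, the change was 2.82. Both hair layer values then equalled the floor, so 2.82 is a lower limit and its SE of 0.04 holds no hair layer spread. The size of the change depends on how a signal near background is treated. Of all tested probes, 96.8% had a lower change.

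Otog encodes otogelin, a mucin-like glycoprotein of the cupula and of the otoconial and tectorial membranes. It showed the opposite direction. Its raw intensity was 227 and 207 on the hair layer arrays and 26.9 and 27.4 on the supporting layer arrays, with a normalized intensity of 173, 179.9, 35.7 and 36.4. All 4 spots were detected, although the supporting layer values were not far above the lowest detected signals of their arrays, 26.6 and 28.3. Otog changed by -2.29 ± 0.07 (adjusted p = 0.00120 by limma), a fold of 4.89 toward the hair layer. The layer changes of Tecta and Otog differed by 5.80 on the log2 scale. The difference was 5.11 with the floor at the highest detection limit, since both hair layer values of Tecta lay below that floor. The 5.80 had a between-array SD of 0.33 in the hair layer and 0.08 in the supporting layer. An exact two-sided permutation test of this difference gave p = 0.333, the smallest value that 2 arrays against 2 can give.

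Spp1 encodes osteopontin, a secreted phosphoprotein with an integrin-binding site that is known from bone, macrophages and many epithelia. Its raw intensity was 154 and 124 on the hair layer arrays and 25.6 and 18.5 on the supporting layer arrays. The normalized intensities were 117, 109.6, 34.3 and 26.3, and the last of these, on supporting layer array 2, was not detected. Both hair layer arrays lay above both supporting layer arrays. Spp1 changed by -1.92 ± 0.17 (adjusted p = 0.00380 by limma), a fold of 3.78.

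Sparcl1 encodes SPARC-like 1, also called hevin, which binds collagen and is known from astrocytes and blood vessel walls. Its spots were among the brightest on the arrays. The raw intensity was 26440 on hair layer array 1, where the spot was saturated, and 24168 on array 2, against 6646 and 5850.1 on the supporting layer arrays. After normalization the values were 21968, 22124, 7526 and 6785. Sparcl1 changed by -1.63 ± 0.09 (adjusted p = 0.00189 by limma), a fold of 3.09, and a saturated spot gives only a lower bound of its own signal.

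Sparc encodes SPARC, also called osteonectin, the calcium- and collagen-binding relative of SPARC-like 1. At its brighter probe the raw intensity was 5208 and 4575 on the hair layer arrays and 3942 and 3590.45 on the supporting layer arrays, and the normalized intensities were 4268, 4145, 4531 and 4333. The change of 0.08 ± 0.07 missed the threshold (adjusted p = 0.414 by limma), and it was 0.40 ± 0.32 with median scaling. The dimmer probe of Sparc had normalized intensities of 89.1 and 53.4 in the hair layer and 55.3 and 57.2 in the supporting layer. Its change of -0.29 ± 0.30 did not pass either (adjusted p = 0.425 by limma). Hair layer array 1 alone stood above the other arrays at that probe. Without hair layer replicate 1 the change was 0.08 ± 0.09, and without hair layer replicate 2 it was -0.65 ± 0.09 with an adjusted p of 0.0398 by limma. The platform annotation assigned both probes to the same transcript, while the scanner files gave an expressed sequence tag of a different UniGene cluster for each. The layer changes of Sparcl1 and of Sparc at its brighter probe differed by -1.70 on the log2 scale. The between-array SDs were 0.04 in the hair layer and 0.06 in the supporting layer. Because the Sparcl1 spot was saturated on hair layer array 1, the SD of 0.04 rests on a capped value and the difference may be larger. An exact two-sided permutation test gave p = 0.333, again the smallest value possible with 2 arrays against 2.

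Tnc encodes tenascin-C, a large hexameric glycoprotein that modulates cell adhesion and is known around the calyx endings of vestibular afferents. Its brighter probe had raw intensities of 2908 and 2925 in the hair layer and 708 and 612 in the supporting layer, and normalized intensities of 2302, 2579.9, 897 and 829. The change was -1.50 ± 0.10 (adjusted p = 0.00254 by limma), a fold of 2.83. The dimmer probe had normalized intensities of 74.4 and 80.0 in the hair layer, and 30.6 and 13.5, both undetected, in the supporting layer. This probe met the detection filter through the hair layer alone, which fixes the direction of its call. The hair layer was at least 2.62-fold higher (adjusted p = 0.0347 by limma). This limit sets the hair layer mean of 77.2 against the higher of the lowest detected signal and the measured signal on each supporting layer array, a mean of 29.4. The call at the dimmer probe was lost without hair layer replicate 1 (adjusted p = 0.139), without hair layer replicate 2 (adjusted p = 0.144), with a replicate block (adjusted p = 0.0613) and without a filter on dim probes (adjusted p = 0.0998), all by limma. Its fitted change moved from -1.93 to -2.52 without supporting layer replicate 1 and to -1.32 without supporting layer replicate 2. The brighter probe kept its call under each of these settings.

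**Figure D2:**
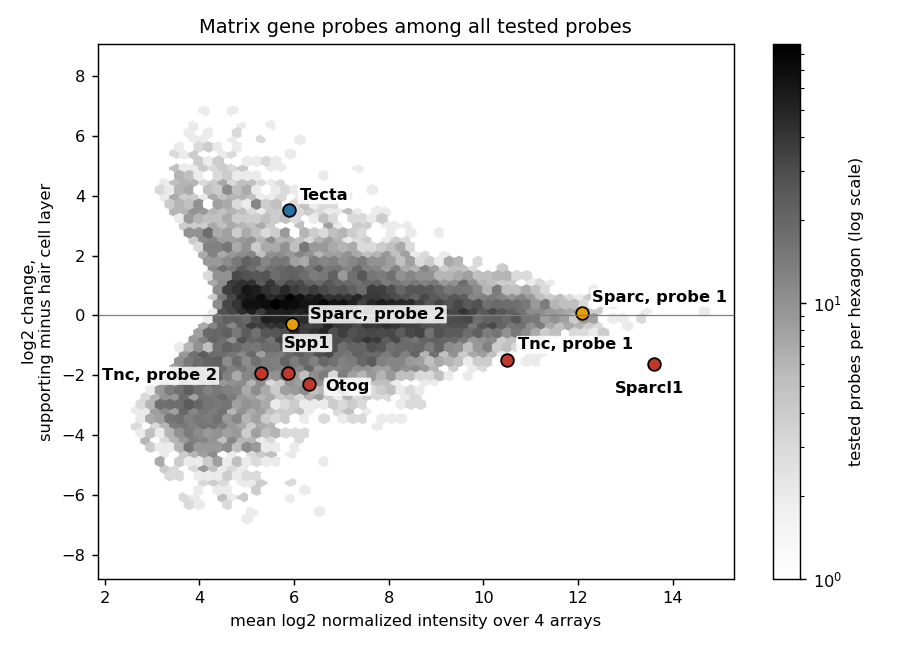
Mean log2 normalized intensity over the 4 arrays against the log2 change between the layers for the 16478 tested probes, with grey shading for the number of probes. The 8 matrix gene probes are marked in red where called higher in the hair cell layer, in blue where called toward the supporting cell layer, in yellow where not called. Tecta lies at a change of 3.51, the Sparc probes at 0.08 and -0.29, and the other 5 marked probes between -2.29 and -1.50.

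The sequences upstream of the 4 genes that were higher in the hair layer are shown because these genes moved the same way. Each is the stretch of 250 bases that ends just before the annotated start, from the RefSeq promoter table of assembly GRCr8, which is no coordinate system of the arrays. They are at chr1:105882497-105882746, plus strand, for Otog; chr14:5619805-5620054, minus strand, for Spp1; chr14:5937234-5937483, plus strand, for Sparcl1; and chr5:82476132-82476381, minus strand, for Tnc. Each reads 5′ to 3′ toward its gene, and capitals mark matches to CANNTG, the E-box that basic helix-loop-helix factors bind.
Otog: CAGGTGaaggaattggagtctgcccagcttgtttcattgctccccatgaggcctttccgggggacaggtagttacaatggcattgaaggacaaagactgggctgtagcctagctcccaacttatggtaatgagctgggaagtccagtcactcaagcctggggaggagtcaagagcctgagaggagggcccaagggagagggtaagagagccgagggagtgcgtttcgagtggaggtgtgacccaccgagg
Spp1: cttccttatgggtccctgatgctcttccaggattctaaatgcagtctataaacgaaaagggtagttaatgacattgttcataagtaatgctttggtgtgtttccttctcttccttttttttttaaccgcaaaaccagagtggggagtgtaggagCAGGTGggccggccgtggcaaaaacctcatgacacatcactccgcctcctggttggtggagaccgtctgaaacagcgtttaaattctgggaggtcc
Sparcl1: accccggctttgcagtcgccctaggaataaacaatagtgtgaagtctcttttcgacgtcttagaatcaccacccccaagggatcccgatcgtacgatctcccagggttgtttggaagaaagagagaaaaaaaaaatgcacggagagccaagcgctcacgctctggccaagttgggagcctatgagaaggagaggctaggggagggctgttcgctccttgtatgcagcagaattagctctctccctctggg
Tnc: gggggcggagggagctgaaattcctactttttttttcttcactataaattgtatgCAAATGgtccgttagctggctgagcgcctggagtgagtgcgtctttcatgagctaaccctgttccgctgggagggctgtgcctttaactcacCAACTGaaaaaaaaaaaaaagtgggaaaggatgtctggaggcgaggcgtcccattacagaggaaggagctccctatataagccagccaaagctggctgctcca

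A match to CANNTG was found once in the Otog and Spp1 windows, 2 times in the Tnc window and not in the Sparcl1 window, and 65.5% of 33469 windows of the same length held at least 1. The Sparc window held 3. AACAAT, a core read by SOX proteins, occurred once in Spp1 and once in Sparcl1, and in 10.3% of all windows. TATAAA occurred once in Spp1 and once in Tnc (12.9% of all windows), and GGGCGG once in Tnc (30.5%). TGANTCA was in none of the 4 windows and in 6.34% of all windows. Both strands were searched for each of the 5 motifs. No motif was in all 4 windows. The GC content of the windows was 56.4% for Otog, 46.8% for Spp1, 52.4% for Sparcl1 and 49.6% for Tnc. A match is a description of the letters and no evidence of binding.

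Spp1 and Sparcl1 lie close to each other on rat chromosome 14, with 4 protein-coding genes between them in the RefSeq annotation: Mepe, Ibsp, Dmp1 and Dspp. These 4 encode the other SIBLING proteins, secreted phosphoproteins of bone and tooth that are related to osteopontin. Of the 4, 3 were tested and only Dmp1 was called, beside 65.4% of all tested genes. It was detected on both hair layer arrays and on neither supporting layer array, at least 5.34-fold higher in the former (adjusted p = 0.00430 by limma). Dmp1 met the detection filter through the hair layer alone, which fixes the direction of its call. Ibsp, bone sialoprotein, had a change of 0.41 ± 0.14 that missed the threshold (adjusted p = 0.0725 by limma). Dspp was detected only in the supporting layer and did not pass either (adjusted p = 0.0561 by limma). Mepe was undetected on all 4 arrays.

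Beyond the 8 genes, 54 genes of 5 related lists were looked up. A probe was named for 40 of them and 19 were tested, of which 11 were higher in the hair layer, 2 were higher in the supporting layer and 6 did not pass, close to the 65.4% called over all tested genes (37.2% and 28.2% by direction). Of the 12 genes detected in both layers, 6 were higher in the hair layer and 2 in the supporting layer. In a fit of only the probes detected on all 4 arrays, these became 7 and 3 of 12. Of all 11059 probes in that fit, 3598 were called toward the hair layer and 4836 toward the supporting layer. The other 7 were detected in 1 layer only, 6 of them in the hair layer, so their direction was set by the filter. Their count supports nothing. The median change was -0.90, or -0.48 with those 7 genes held at their lower limit, beside -0.10 over all tested genes. Without hair layer replicate 2 the count of called genes fell from 13 to 8 of 19. Without either supporting layer replicate, and without a filter on dim probes, the genes called higher in the supporting layer went from 2 to 0. Leaving out some single array ended the calls of Ccn3, Col9a2, Fstl1, Itga8, Itgb3 and Noxo1, while Atp2b2, Ceacam16, Col2a1, Dmp1, Itga9, Sdc4 and Thbs2 were called in each such fit.

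Among the other proteins of tectorial, cupular and otoconial matrices, 4 of 14 were tested. Ceacam16, a secreted protein that binds alpha-tectorin in the tectorial membrane, was detected only in the hair layer, at least 2.28-fold higher there (adjusted p = 0.00150 by limma). It met the detection filter through the hair layer alone, which fixes the direction of its call. The fibrillar collagen gene Col2a1 changed by -1.26 ± 0.08 and the collagen IX gene Col9a2 by 0.55 ± 0.10, both called. The Col9a2 call was lost without supporting layer replicate 1 (adjusted p = 0.0645), supporting layer replicate 2 (adjusted p = 0.0561) or hair layer replicate 2 (adjusted p = 0.0610), by limma. Col11a1 had a change of -0.39 ± 0.15 that missed the threshold (adjusted p = 0.10 by limma). Umod, Col9a1 and Col11a2 were undetected on all 4 arrays, and no probe was named for Otogl, Otoa, Otol1, Zpld1, Strc, Emilin2 or Col9a3.

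Of the genes that take part in otoconium formation without being matrix proteins, 2 were tested, Atp2b2 and Noxo1. The plasma membrane calcium pump Atp2b2, also a hair bundle gene, changed by -2.80 ± 0.08, higher in the hair layer. The oxidase organizer Noxo1 was detected only in the hair layer and met the filter through that layer alone. Its mean there, 28.6, barely exceeded the lowest detected signals of the supporting layer arrays, so that the lower limit of its fold was only 1.04 (adjusted p = 0.0101 by limma), and the call was lost with the floor at the highest detection limit (adjusted p = 0.375). Otop1, the otopetrin proton channel, and Slc26a4, pendrin, were undetected on all 4 arrays.

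In the matricellular families 4 of 18 genes were tested. Thrombospondin-2 (Thbs2) and the CCN family gene Ccn3 were detected only in the hair layer, at least 2.67-fold and 2.57-fold higher. The SPARC family gene Fstl1 changed by -0.48 ± 0.08 at its brighter probe, also called, and by -0.24 at its dimmer probe. The Fstl1 call was lost with median scaling (adjusted p = 0.347) and with the scanner software's normalization (adjusted p = 0.587). It was also lost without a filter on dim probes (adjusted p = 0.117) and with a replicate block (adjusted p = 0.0553), all by limma. Smoc2, another SPARC family gene, had a change of 0.15 ± 0.11 at its brighter probe that missed the threshold (adjusted p = 0.298 by limma), and its dimmer probe had a change of -1.92. The tenascin genes Tnr and Tnn were undetected on all 4 arrays, as were Smoc1, Comp, Postn and Ccn2.

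Of 12 receptors of osteopontin, tenascin-C or SPARC, 6 were tested, of which 3 were higher in the hair layer and 1 in the supporting layer. Over all tested genes the shares were 37.2% and 28.2%. The integrin alpha-9 gene Itga9, whose product binds osteopontin and tenascin-C, changed by -2.58 ± 0.07 at its brighter probe and by only -0.70 at its dimmer probe. Itga8 changed by -0.62 ± 0.08, and by -0.49 at its dimmer probe. The syndecan gene Sdc4 changed by -0.90 ± 0.07. These 3 genes were called at their brightest probe. The Itga8 call was lost with median scaling (adjusted p = 0.205 by limma). With the scanner software's normalization the calls of Itga8 (adjusted p = 0.449) and Sdc4 (adjusted p = 0.196) were lost, by limma. Itgb3 was called toward the supporting layer, at 0.36 ± 0.08 (adjusted p = 0.0315 by limma), a call lost when any one of the 4 arrays was left out (adjusted p from 0.0655 to 0.121) and with the replicate block (adjusted p = 0.0906). Itgb6 (-0.13 ± 0.07) did not pass. Itgb1 was detected only in the hair layer, near the limit, and did not pass (adjusted p = 0.116 by limma). The osteopontin receptor Cd44 was undetected on all 4 arrays, with Itgb5, Itga4, Itga5 and Stab1.

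**Figure D3:**
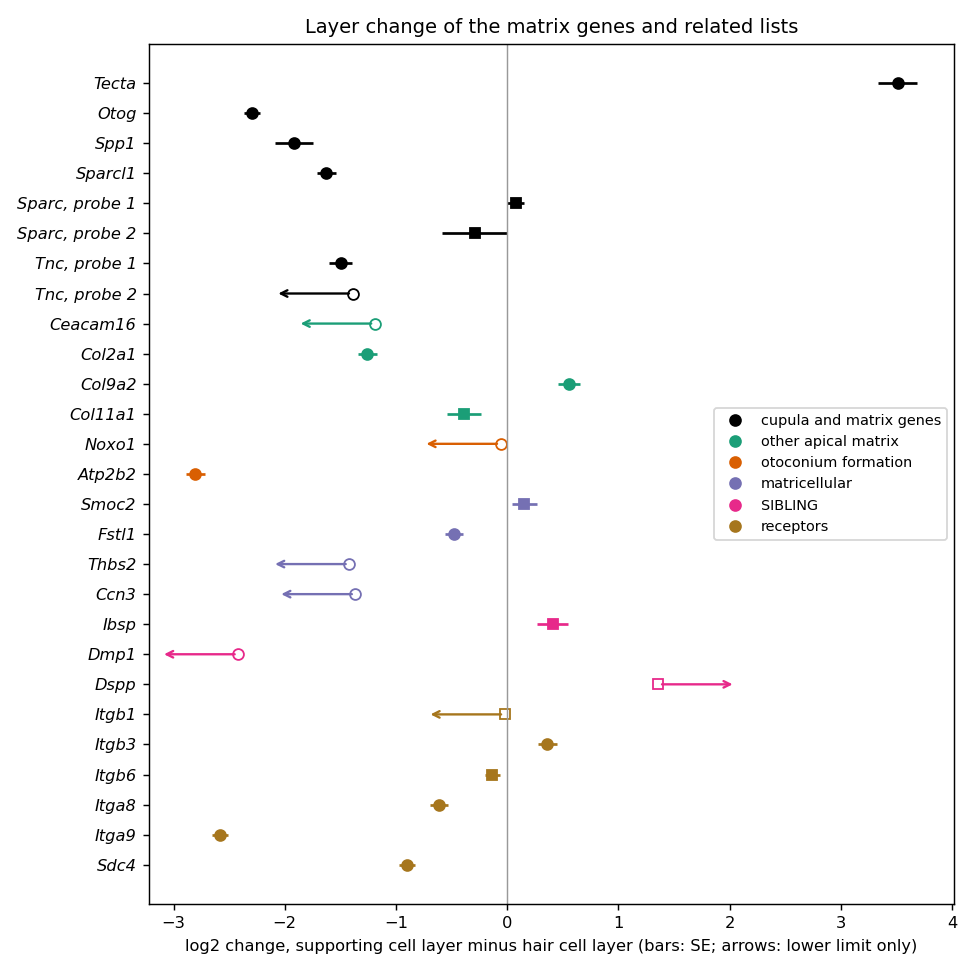
Log2 change, supporting cell layer minus hair cell layer, for the 8 probes of the matrix genes (black) and the 19 tested genes of the 5 related lists (colours). Circles were called and squares were not, bars are the standard error, and open symbols with an arrow give only the lower limit of a change because the probe was undetected in 1 layer. Tecta at 3.51 stands on the opposite side from Otog at -2.29, and 11 of the 19 list genes were called on the hair cell side.

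Many markers of cell types also differed between the layers. Every list except those of hair cells and of bone and cartilage held calls in both directions. The part of cell types in the changes of the matrix genes was not tested. The counts below stand beside 37.2% of all tested genes called higher in the hair layer and 28.2% in the supporting layer. Of 14 tested hair cell markers 12 were higher in the hair layer. Their summed normalized intensity was 12304 and 13234 there, against 5506 and 5231 in the supporting layer. Of 17 supporting cell markers 8 were higher in the hair layer and 6 in the supporting layer, with summed intensities of 27667 and 27518 against 24714 and 25584. Macrophages are known to express Spp1. Of 5 tested immune markers 3 were higher in the hair layer and 2 in the supporting layer, and the layer means of these 5 summed to 329 in the hair layer and 162 in the supporting layer. Aif1, C1qa and Cd68 were detected only in the hair layer, so the detection filter fixed the direction of those 3 calls. Csf1r and Cd74 were higher in the supporting layer, and Ptprc and C1qb were undetected on all 4 arrays. Per-array sums, here and below, take every marker with a probe, also the undetected ones. For immune cells they leave out Cd68 and Csf1r, which lack a usable spot on an array, and were 260.0 and 265.6 against 70.0 and 61.6. Blood vessels and connective tissue are known to express Sparc and Sparcl1. Of 8 tested endothelial and pericyte markers 6 were higher in the supporting layer and 1 in the hair layer (layer means summing to 945 in the hair layer and 2967 in the supporting layer; per-array sums without Cldn5, which lacks a usable spot on an array, 530.1 and 580.7 against 1510 and 1527; Kdr and Pdgfrb undetected). For connective tissue, 3 of 6 tested markers were called toward the supporting layer and 1 toward the hair layer (sums 989.9 and 1012 against 2333 and 2364; Lum and Pdgfra undetected). Of 5 tested bone and cartilage markers 2 were higher in the supporting layer and 0 in the hair layer (sums 204 and 162 against 532 and 538, Sp7 undetected). Higher in the hair and supporting layer were 1 and 2 of 4 tested Schwann cell markers, and 2 and 2 of 4 tested neuron and afferent markers. For dark cells and melanocytes they were 1 and 1 of 2. Among all these markers, Cdh23, Espn, Cldn9, Fbn1, Nefl and Nefm were detected only in the hair layer, and Rgs5, Runx2 and Mitf only in the supporting layer. The filter fixed the direction of these calls too.

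Otog, Sparcl1 and Tnc, at its brighter probe, were called and detected on all 4 arrays, and for each the most similar pattern over the arrays was sought among 6433 named probes detected on all 4, by the Euclidean distance between mean-centred log2 values. Nearest to Otog were Phc3 (distance 0.05, change -2.25 ± 0.08) and B4gat1 (0.06, -2.23 ± 0.07). Nearest to the brighter Tnc probe were C9h2orf69 (0.04, -1.53 ± 0.10) and Tmem63a (0.04, -1.49 ± 0.11). No ranking is given for Sparcl1, whose value on hair layer array 1 was saturated and so only a lower bound. With only 4 arrays in 2 layers, such likeness says little more than that the change was of the same size.

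**Figure D4:**
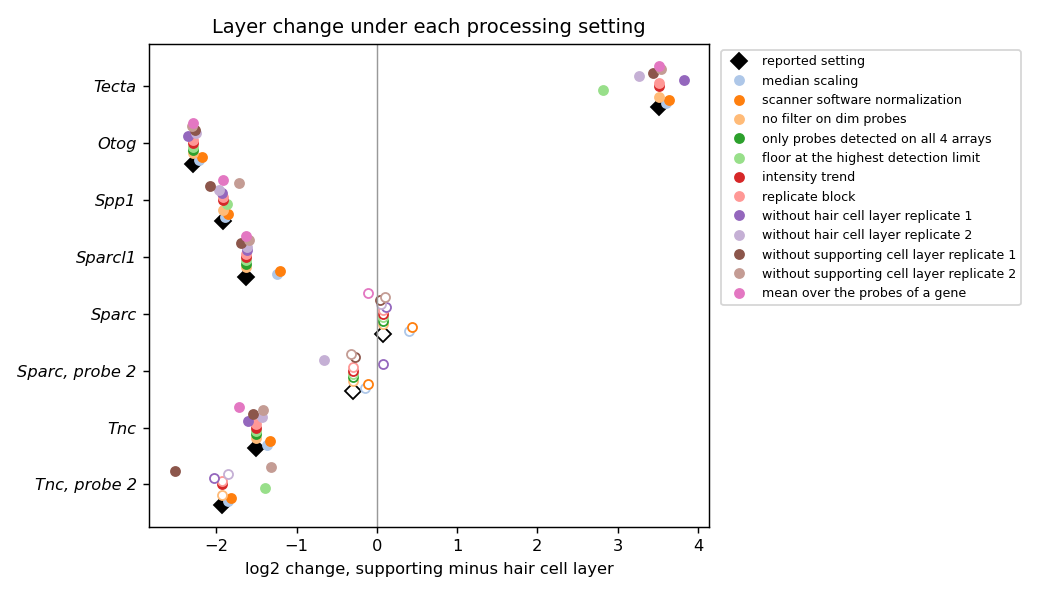
Log2 change of each matrix gene probe under the reported setting (black diamonds) and each alternative (coloured circles), filled where the adjusted p by limma was under 0.05 and open where it was not. Tecta stayed between 2.82 and 3.82 and Otog between -2.36 and -2.18, while the 2 probes of Sparc and the dimmer probe of Tnc had open points.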

How the data were processed

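Gene expression was measured on 4 single-colour Rat Whole Genome arrays. Per the labels' protocols, poly(A) RNA underwent linear amplification to biotinylated cRNA. Per the file headers, the authors quantified slides with CodeLink Expression Analysis 4.0.0.23520; the deposited raw intensity of a spot is background-corrected and the deposited normalized intensity is that value over the median of the array. The number of arrays limits the precision.

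Probes were named from the platform annotation, paired through the deposited series table, whose values equalled the scanner files within 1e-06 on 3 arrays for 35125 rows. The fourth column was shifted (3 rows equal) and not used. Control spots and spots marked contaminated, irregular or failed were left out. Raw intensities were quantile-normalized, floored at 0.1 of the normalized median, then converted to log2 values. Probes detected on at least 2 of 4 arrays were tested in limma 3.58.1 (R 4.3.3; lmFit and eBayes, no trend or block, two-sided, Benjamini-Hochberg), on simulated data first. A gene's brightest probe stands for it. All members were named, with list genes called or brightest and, for called members detected on all 4 arrays, the 2 nearest genes. Members and lists were chosen with earlier results of these data known. Alternatives changed scaling, filter, floor, prior, pairing, probe rule and replicates.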

Additional observations from a re-analysis of the deposited data

How the results depend on the processing

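The number of called matrix genes, 5 of 6, was the same under 11 alternatives. It was 3 of 4 among probes detected on all 4 arrays, a filter that leaves out Tecta and Spp1. That filter called 8434 of 11059 probes. Tecta, Otog, Spp1, Sparcl1 and the brighter Tnc probe kept direction and call in every alternative run for them. Their ranges were 2.82 to 3.82, -2.36 to -2.18, -2.07 to -1.72, -1.69 to -1.21 and -1.71 to -1.33, with highest adjusted p of 0.0187, 0.0186, 0.0392, 0.0236 and 0.0252 by limma. For Tnc, the -1.71 is the mean over both probes, and the brighter probe alone went no lower than -1.61. The brighter Sparc probe passed in none, with a change of 0.44 under the scanner software's normalization. The mean over both Sparc probes did not pass either, at -0.11 (adjusted p = 0.589 by limma). The dimmer Sparc probe had a change of 0.078 without hair cell layer replicate 1 and -0.65 without replicate 2, where it passed. Over all probes, 11111 were called in the reported setting, 6870 with the scanner software's normalization, 6654 without a filter on dim probes, and 7252 to 9939 with 1 array left out. With 1 array left out, 8 to 12 related list genes were called, against 13, and the lone array of a layer is assumed to vary like the others. The median change of all tested probes was 0.01, and 0.14 with the scanner software's normalization. The SE of Otog rose from 0.07 to 0.32 with median scaling and to 0.46 with the scanner software's normalization. That of Sparcl1 rose from 0.09 to 0.32 and 0.46. With the replicate number as a block, 8756 probes and 5 of 6 matrix genes were called. The deviations of same-numbered arrays correlated at r = -0.002 over 15984 probes. This correlation cannot show whether those arrays shared an animal or a preparation. Normexp background correction was not run, because the files give no separate background column, and no batch term was run, because each array has a slide of its own. Signals near background limit Tecta in the hair cell layer, and Spp1 and Otog in the supporting cell layer.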
